A study of Mus musculus with 10 samples.

Results

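The mouse clustered protocadherin locus on chromosome 18 (GRCm38, chr18:36930184-37841873) also holds 27 annotated genes that are no protocadherins, beside 58 clustered protocadherin genes. Of these 27, the 7 described here are the lincRNA gene *3222401L13Rik*, the antisense gene *Gm37446*, the pseudogenes *Gm18529* and *Gm36858*, the small nucleolar RNA gene *Gm24401*, and the protein-coding genes *Slc25a2* and *Taf7*. They were picked from the 54532 genes of the count tables by position and with their log2 fold changes after loss of *Mphosph8* known. The values of the *Mphosph8* comparison are therefore given as a description, without a test.

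RNA of NeuN+ nuclei, sorted from brains of adult C57BL/6J mice, was sequenced in 10 libraries. *Mphosph8*∆n (n = 3) denotes Mphosph8 fl/fl mice with the Nestin-Cre transgene and *Morc2a*∆n (n = 2) Morc2a fl/fl mice with it. The 5 controls carried no Cre, and replicates 1 to 3 were Mphosph8 fl/fl, replicates 4 and 5 Morc2a fl/fl. All 10 libraries thus came from mice with 1 of both floxed genes, and no Cre-positive control without a floxed gene was among them, so that effects of Cre itself cannot be told apart from those of the deletions. Nestin-Cre is active in neural precursors, so the deletion reaches glia as well as neurons. It removes a single exon of either gene.

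MPP8, the product of *Mphosph8*, binds histone H3 trimethylated at lysine 9 as part of the HUSH complex, which silences transposons, retrogenes and other young or intronless sequences. MORC2A is an ATPase that works with HUSH. The clustered protocadherins encode cell adhesion molecules of neurons and stand in 3 arrays, Pcdha, Pcdhb and Pcdhg, from whose many promoters each neuron uses a few. Genes of other kinds that stand between them share their surroundings but not their function.

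The libraries held between 6686038 and 10764555 counts, so that 3 counts amounted to 0.28 to 0.445 CPM (counts per 1000000 counts of a library, its size scaled by TMM). Of 18573 genes tested, 18 were called in *Mphosph8*∆n and 11 in *Morc2a*∆n against the 5 controls, where called means an adjusted p below 0.05 in edgeR's quasi-likelihood test and a fold change above 2. The marker genes of neurons, astrocytes, oligodendrocytes and their precursors, microglia and endothelial cells (29 genes tested) included none that was called in either knockout with edgeR, limma-voom or DESeq2, with 2 at an unadjusted p below 0.05 in *Mphosph8*∆n and 8 in *Morc2a*∆n. *Rbfox3*, which encodes NeuN, had a mean of 232 CPM in the controls. The summed level of the 6 neuronal markers was 4030 to 4723 CPM in the controls, 4066 to 4354 CPM in *Mphosph8*∆n and lower, 3173 to 3728 CPM, in *Morc2a*∆n, and the part of this in the *Morc2a*∆n values was not tested. Likewise the 6 oligodendrocyte markers summed to 738 to 963 CPM in the controls, to 710 to 965 CPM in *Mphosph8*∆n and to 545 to 671 CPM in *Morc2a*∆n. Those of astrocytes summed to 495 to 614, 443 to 502 and 542 to 545 CPM in the 3 groups, and those of microglia to 33.4 to 59.3, 38.7 to 41.8 and 31.7 to 37.2 CPM. The targeted genes were counted over their whole length, of which the deleted exon is a small part, so their counts are no direct check of the deletions. The study expected decay of the shortened mRNA and verified the loss in whole brains by qRT-PCR and immunoblots. It also measured both mRNAs by qRT-PCR in sorted NeuN+ nuclei of controls and both knockouts. *Mphosph8* was at 38.6 ± 6.8 CPM (SD, n = 5) in controls and 30.6 ± 10.2 CPM (SD, n = 3) in *Mphosph8*∆n, and *Morc2a* at 140 ± 14.7 CPM (SD, n = 5) in controls and 219 ± 5.45 CPM (SD, n = 2) in *Morc2a*∆n.

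The 7 genes lie scattered over the locus. *Gm36858* (chr18:36980057-36989575, plus strand, unprocessed pseudogene with 2 exons) lies in the Pcdha array, within the spans of *Pcdha1* to *Pcdha7*. *Gm18529* (chr18:37305535-37306791, plus strand, processed pseudogene) begins 949 bases after *Pcdhb3* and ends 663 bases before *Pcdhb4*. *Gm37446* (chr18:37433412-37437547, minus strand) lies opposite *Pcdhb12* and the gene *Gm20162*, with which it shares 2798 of its 4136 bases. *Slc25a2* (chr18:37637377-37638745) and *Taf7* (chr18:37640491-37644204), both on the minus strand, stand 1745 bases apart between the Pcdhb and Pcdhg arrays. *3222401L13Rik* (chr18:37655451-37661742, plus strand) follows 11246 bases after *Taf7* and ends 50 bases before the annotated start of *Pcdhga1*. *Gm24401* (chr18:37705979-37706069, plus strand), 91 bases long, lies within the spans of 7 Pcdhg genes, 969 bases before *Pcdhga6*. Of the 7 genes, 5 have a single exon, and all but *Gm37446* share no exonic base with another gene.

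*3222401L13Rik*, a long noncoding RNA gene of 1 exon and 6292 bases, was high in every knockout library and low in every control. Its level was 4.51, 9.06 and 5.05 CPM in control replicates 1 to 3, and 0 and 0.445 CPM in control replicates 4 and 5. It was 178, 137 and 117 CPM in the *Mphosph8*∆n libraries, from 1135 to 1722 counts each. The *Morc2a*∆n libraries held 71.1 and 119 CPM, from 669 and 1150 counts. No knockout library thus overlapped a control, and the highest *Morc2a*∆n library slightly exceeded the lowest *Mphosph8*∆n library. In these bulk nuclei, a change in the share of nuclei that transcribe a gene cannot be told apart from a change in RNA per nucleus.

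The mean of *3222401L13Rik* was 3.81 ± 3.72 CPM (SD, n = 5) in the controls, 144 ± 30.9 CPM (SD, n = 3) in *Mphosph8*∆n and 94.9 ± 33.6 CPM (SD, n = 2) in *Morc2a*∆n. The fitted log2 fold change was 5.19 (SE 0.54) in *Mphosph8*∆n, a 36.5-fold difference. In *Morc2a*∆n it rose by 4.59 on the log2 scale (SE 0.57, 24.0-fold, edgeR adjusted p = 0.00222). Both comparisons use the same 5 controls. By CPM it ranked between 10942 and 17756 among the 18573 tested genes in the control libraries, between 1210 and 2240 in *Mphosph8*∆n, and 2303 and 4062 in *Morc2a*∆n. The level of *3222401L13Rik* was also set against the summed CPM of the clustered protocadherins. It equalled 0.858 ± 0.821% (SD, n = 5) of that sum in controls. In *Mphosph8*∆n it was 13.3 ± 1.36% (SD, n = 3) and in *Morc2a*∆n 13.4 ± 6.21% (SD, n = 2). Reads on exonic bases shared between genes appear to be missing from the counts, and *3222401L13Rik* shares no exonic base. The sum thus lacks reads on protocadherin exons that overlap other genes, so the percentages may be too high. The size of this effect was not tested.

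In *Morc2a*∆n, *3222401L13Rik* was the 1 gene of the 7 that was called, where 0.0377% of all genes tested were called higher. In *Mphosph8*∆n it was likewise the 1 gene of the 7 past the same thresholds, which 0.0969% of all genes passed upward, but nothing is read from this, since the choice of the 7 genes used that comparison. In *Mphosph8*∆n, 4 of the 7 genes (*3222401L13Rik*, *Gm37446*, *Gm36858* and *Gm24401*) had every knockout library above every control, as had 2.31% of all genes. In *Morc2a*∆n these were also 4 (*3222401L13Rik*, *Gm37446*, *Gm18529* and *Gm36858*), against 7.59% of all genes, and since the controls are those that entered the choice, this count is not independent of it. *Gm37446* and *Gm18529* had at most 5 counts in any control. They passed the filter on low counts only through knockout libraries, which favours such a separation. The median log2 fold change of the 7 genes was 1.6 in *Mphosph8*∆n and 1.57 in *Morc2a*∆n, where that of all genes tested was -0.01 in both. Nothing is read from these medians or from either count of 4. The *Mphosph8*∆n comparison entered the choice of the 7 genes, and the *Morc2a*∆n comparison shares its controls.

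**Figure D1:**
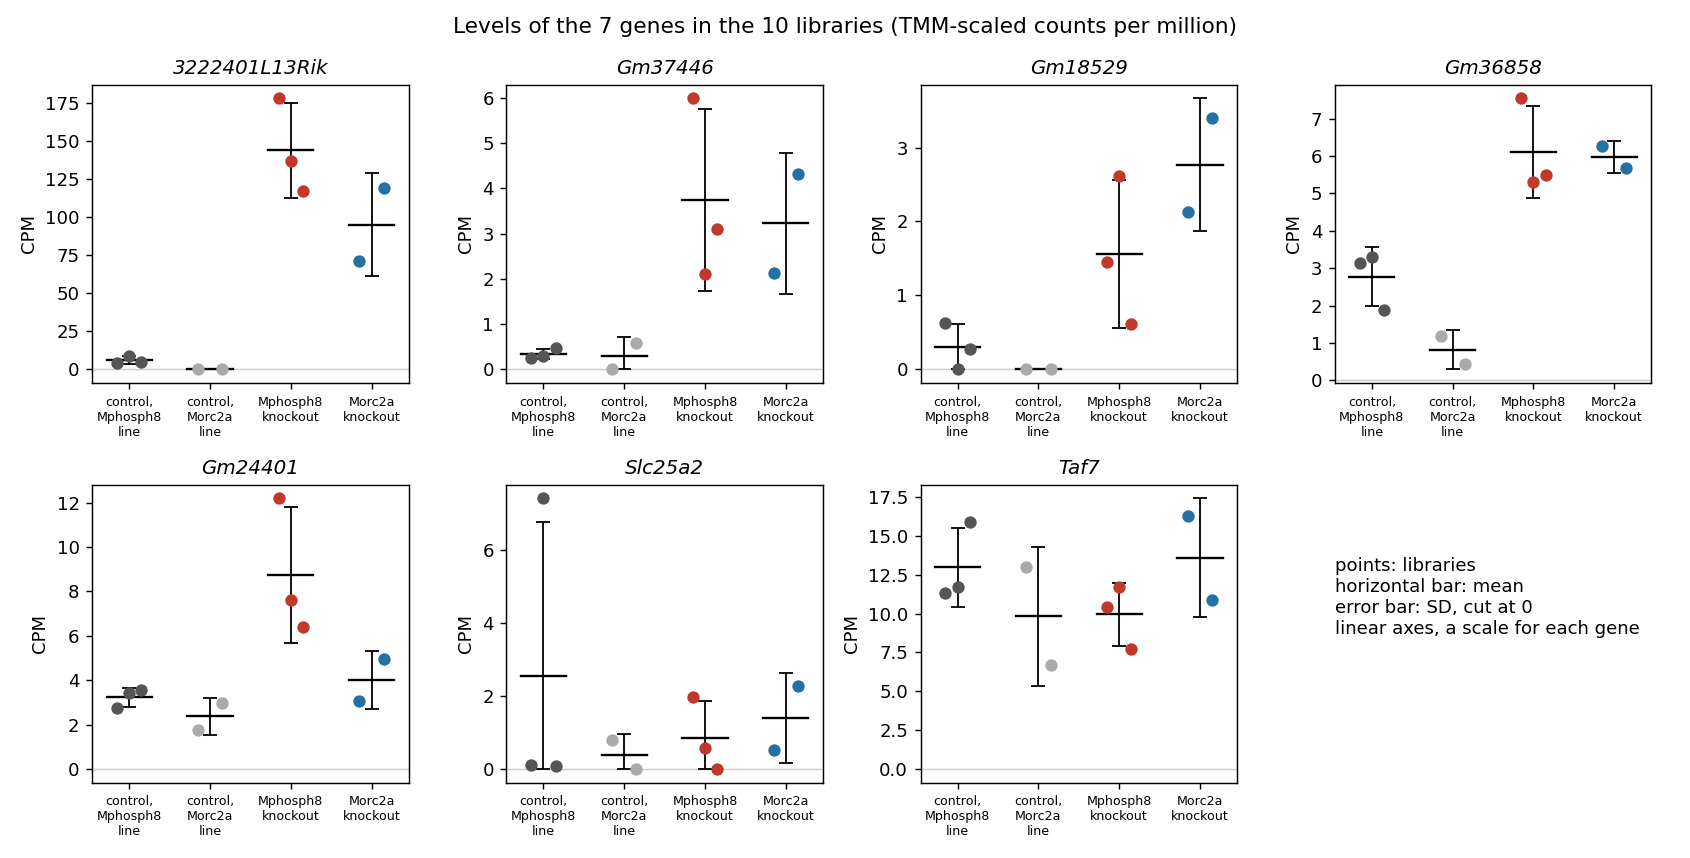
Levels of the 7 genes in CPM (vertical axis, linear, a scale for each gene) in the control libraries of either floxed line and in both knockouts, with a point for each library, the mean as a bar and the SD as error bar. *3222401L13Rik* lies between 71.1 and 178 CPM in the 5 knockout libraries and at 9.06 CPM or below in the 5 controls, whereas the points of *Taf7* overlap between all groups.

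*Gm37446*, annotated as an antisense RNA gene, was near the limit of detection in the controls, with 0.25, 0.292, 0.467, 0 and 0.593 CPM in replicates 1 to 5, that is with 0 to 5 counts. It was 5.99, 2.12 and 3.10 CPM in *Mphosph8*∆n and 2.13 and 4.33 CPM in *Morc2a*∆n, from 20 to 58 counts. All 5 knockout libraries lay above all controls. It differed from the controls by a log2 fold change of 3.52 (SE 0.85) in *Mphosph8*∆n and 3.31 (SE 0.90) in *Morc2a*∆n, and the latter did not pass the test (edgeR adjusted p = 0.181).

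The strand of the *Gm37446* reads is not known. In the count tables, 352 of 355 genes whose exons are wholly covered by genes of the opposite strand had 0 counts in all 10 libraries, as had 408 of 411 genes covered by genes of the same strand, but only 19148 of 40883 genes that share no exonic base. Reads on shared bases were thus left out whatever their strand, and the counts of *Gm37446* come from its 1338 unshared bases. Of these, 831 are at its end (chr18:37433412-37434242) and 507 directly before the start of *Pcdhb12* (chr18:37435114-37435620), so that its own RNA cannot be told apart from RNA that begins upstream of *Pcdhb12* on the other strand. The log2 fold change of *Pcdhb12* was 1.14 (SE 0.28) in *Mphosph8*∆n and 0.91 (SE 0.32, edgeR adjusted p = 0.308) in *Morc2a*∆n, both smaller than those of *Gm37446*. The difference was not tested.

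*Gm18529*, a processed pseudogene and thus a retrotransposed copy of a messenger RNA, had 5 and 3 counts in control replicates 1 and 3 (0.626 and 0.28 CPM) and 0 in replicates 2, 4 and 5. It had 1.45, 2.61 and 0.62 CPM in *Mphosph8*∆n and 2.13 and 3.40 CPM in *Morc2a*∆n. The *Morc2a*∆n libraries thus stood above all controls, whereas the lowest *Mphosph8*∆n library did not. Fitted log2 fold changes were 3.03 (SE 1.20) in *Mphosph8*∆n and 3.85 (SE 1.28) in *Morc2a*∆n, the latter with an edgeR adjusted p of 0.272. Against the 2 controls of its own line, with 0 counts, *Gm18529* was at least 15.6-fold higher in *Morc2a*∆n, taking 3 counts over that group as the limit.

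*Gm36858*, an unprocessed pseudogene, that is a duplicated gene copy, showed 3.13, 3.31, 1.87, 1.19 and 0.445 CPM in control replicates 1 to 5. The 3 *Mphosph8*∆n libraries had 7.54, 5.31 and 5.48 CPM, and the 2 *Morc2a*∆n libraries 6.27 and 5.67 CPM. Both knockouts stood above all controls at nearly the same level. The log2 fold change was 1.6 (SE 0.54) in *Mphosph8*∆n and 1.57 (SE 0.60, edgeR adjusted p = 0.35) in *Morc2a*∆n. The protocadherins next to it, *Pcdha7* and *Pcdha8*, had log2 fold changes of 0.19 (SE 1.23) and -0.00 (SE 1.23) in *Mphosph8*∆n.

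*Gm24401*, annotated as a small nucleolar RNA, a class that mostly guides chemical modification of ribosomal RNA, had 2.75, 3.41, 3.55, 1.78 and 2.97 CPM in control replicates 1 to 5. It had 12.2, 7.62 and 6.41 CPM in *Mphosph8*∆n and 3.08 and 4.95 CPM in *Morc2a*∆n. The *Mphosph8*∆n libraries were all above the controls, and the *Morc2a*∆n libraries overlapped them. On the log2 scale the difference was 1.59 (SE 0.42) in *Mphosph8*∆n and 0.47 (SE 0.49, edgeR adjusted p = 0.80) in *Morc2a*∆n. A read of an unspliced Pcdhg transcript over these 91 bases would be counted for *Gm24401* too. The 7 genes whose spans cover it are *Pcdhga1* to *Pcdhga5*, *Pcdhgb1* and *Pcdhgb2*. Their log2 fold changes were 0.85 to 3.76 in *Mphosph8*∆n and 0.32 to 2.68 in *Morc2a*∆n, and their part in the counts of *Gm24401* was not tested. The next protocadherin gene, *Pcdhga6*, starts after *Gm24401*, so its annotated span does not cover these bases. It had log2 fold changes of 1.97 (SE 0.36) and 1.42 (SE 0.40, edgeR adjusted p = 0.193).

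The protein-coding genes *Taf7* and *Slc25a2* lie before *3222401L13Rik*, and for both the knockout libraries overlapped the controls. *Taf7* encodes a subunit of the general transcription factor TFIID and had 11.3, 11.7, 15.9, 13 and 6.67 CPM in control replicates 1 to 5. Its level was 10.4, 11.7 and 7.75 CPM in *Mphosph8*∆n and 16.3 and 10.9 CPM in *Morc2a*∆n, so that the groups overlapped. Its log2 fold change was -0.24 (SE 0.31) in *Mphosph8*∆n and 0.21 (SE 0.35, edgeR adjusted p = 0.895) in *Morc2a*∆n.

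*Slc25a2* encodes a mitochondrial carrier of ornithine and had 0.125, 7.41, 0.0935, 0.79 and 0 CPM in control replicates 1 to 5. The 7.41 CPM of replicate 2, from 76 counts, stood apart from the other 4 controls, which held at most 8 counts. It had 1.96, 0.579 and 0 CPM in *Mphosph8*∆n and 0.532 and 2.27 CPM in *Morc2a*∆n, within the range of the controls. The log2 fold change was -0.99 (SE 1.47) in *Mphosph8*∆n and -0.28 (SE 1.64, edgeR adjusted p = 0.975) in *Morc2a*∆n. Without control replicate 2 it was 1.66 and 2.37, so no direction can be given for *Slc25a2*.

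**Figure D2:**
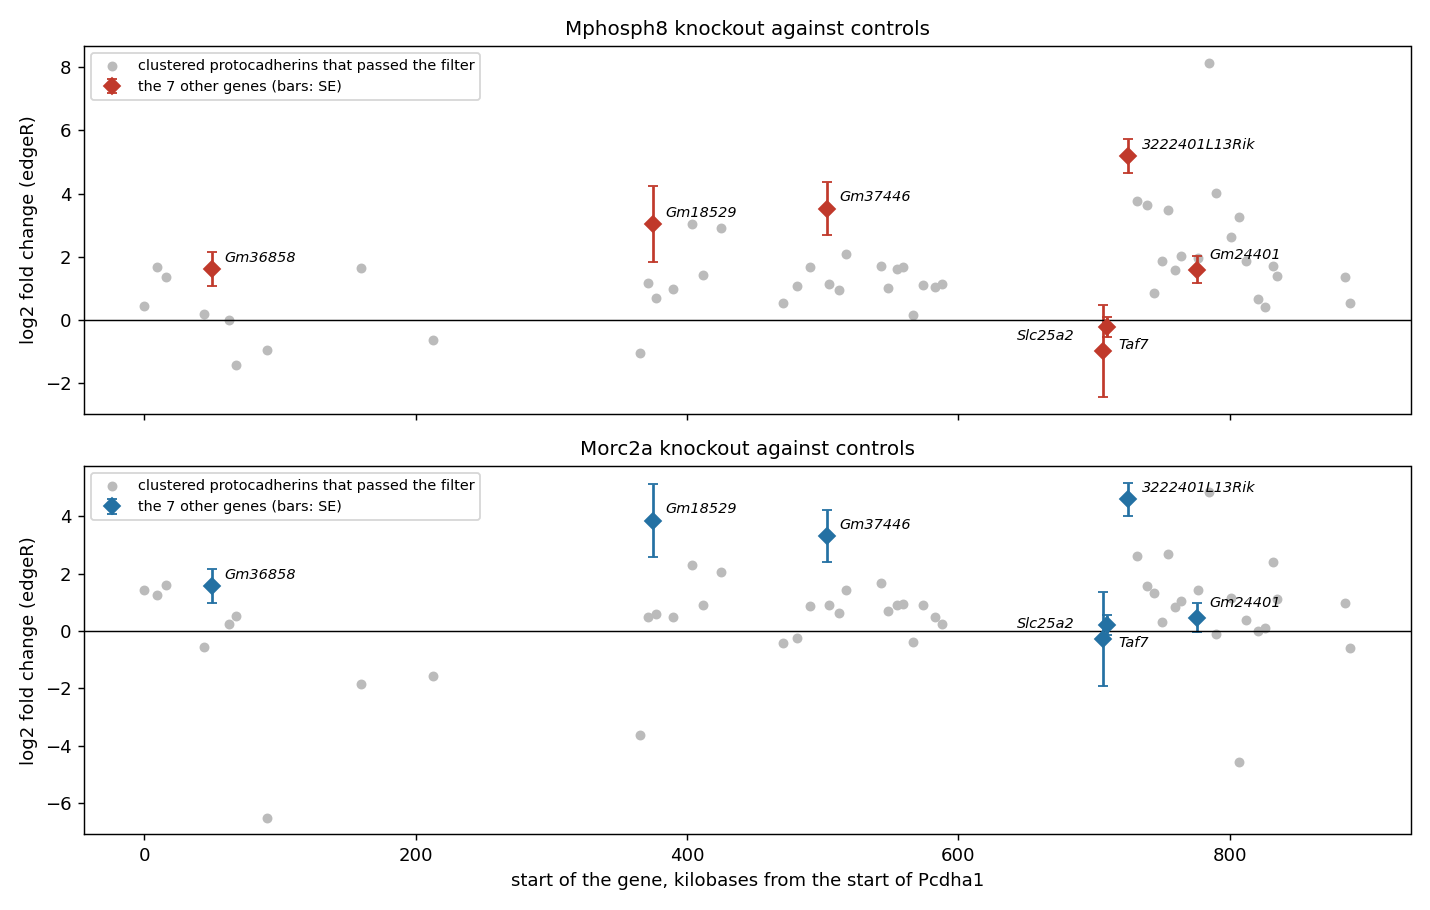
Fitted log2 fold change in *Mphosph8*∆n (top) and *Morc2a*∆n (bottom) against the 5 controls by the start of each gene in kilobases from the start of *Pcdha1*, for the 7 genes (diamonds, error bars are SE) and for the 49 clustered protocadherins that passed the filter on low counts (grey points). The highest grey point in each plot is *Pcdhga7*, which had 0 counts in the controls, so that its height depends on the fit. *3222401L13Rik* lies at 5.19 and 4.59, and *Taf7* and *Slc25a2* directly before it lie near or below 0.

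The 5 controls also allowed a comparison of both floxed lines without Cre, in a fit with a mean for each line. *3222401L13Rik* was 6.21 ± 2.49 CPM (SD, n = 3) in the Mphosph8 fl/fl controls and 0.222 ± 0.315 CPM (SD, n = 2) in the Morc2a fl/fl controls, where it had 3 counts in sum. It fell by 5.02 on the log2 scale in the latter (SE 0.70, 32.5-fold, edgeR adjusted p = 0.00574), and of all genes tested 0.0754% were called lower. The pooled counts differed 35.5-fold (exact 95% interval 12 to 174, for counting error only). Without control replicate 4, with 0 counts, the log2 difference was -3.78 and no longer passed (edgeR adjusted p = 0.0961), and limma-voom gave an adjusted p of 0.485. The line cannot be told apart from any other difference between these mice.

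*3222401L13Rik* was thus compared with the controls of the same line as well. From Mphosph8 fl/fl controls to *Mphosph8*∆n, the pooled CPM was 22.8-fold higher (exact 95% interval 19.6 to 26.6), and the log2 fold change in the fit was 4.52. From Morc2a fl/fl controls to *Morc2a*∆n, 1819 counts stood against 3, a 535-fold ratio whose interval of 183 to 2599 reflects the 3 counts. The mean was thus 144 CPM in *Mphosph8*∆n against 6.21 CPM in the controls of its line, and 94.9 CPM in *Morc2a*∆n against 0.222 CPM.

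The other 6 genes did not pass the test between the lines. *Gm36858* was lower in both Morc2a fl/fl controls than in all Mphosph8 fl/fl controls, with a log2 difference of -1.70 (SE 0.67, edgeR adjusted p = 0.432). The 8 counts of *Gm18529* in the controls all came from the Mphosph8 line. *Gm37446*, *Gm24401*, *Slc25a2* and *Taf7* overlapped between the lines, with edgeR adjusted p between 0.732 and 0.973. The fitted difference was below 0 for all 7 genes in the Morc2a line, with a median of -1.70, against -0.00 for all genes and -0.86 for the clustered protocadherins. These values are not independent of the choice of the 7 genes, which these controls entered. Without control replicates 2, 4 or 5 the fitted difference turned above 0 for *Slc25a2*, *Gm37446* or *Taf7*, respectively.

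**Figure D3:**
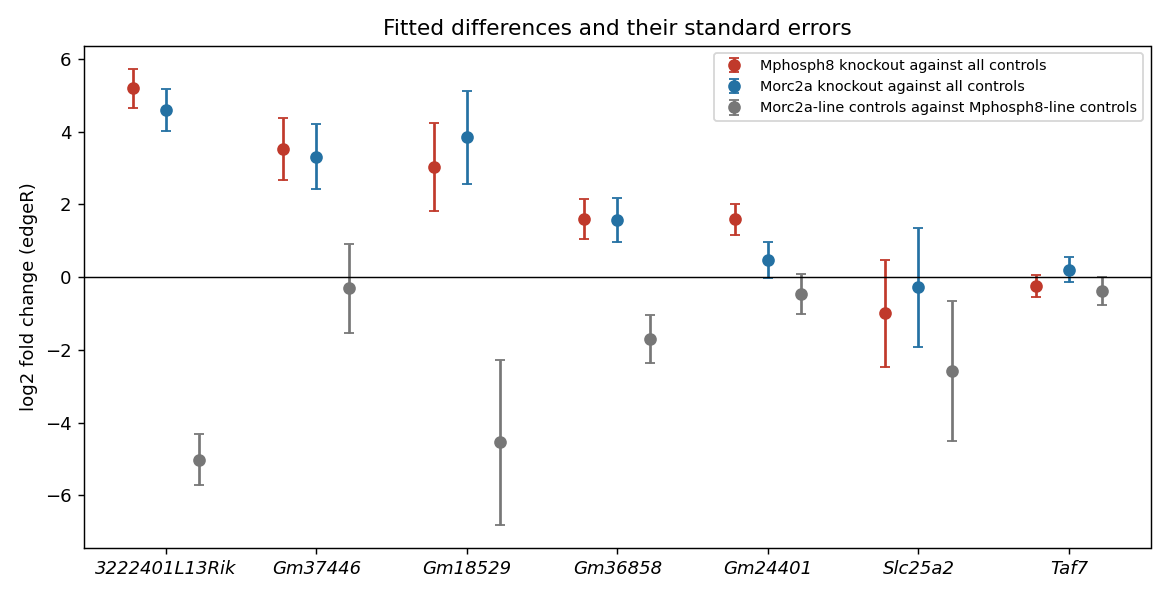
Fitted log2 fold change and its SE (error bars) of the 7 genes in *Mphosph8*∆n and *Morc2a*∆n against all 5 controls and in the Morc2a fl/fl against the Mphosph8 fl/fl controls. *3222401L13Rik* lies furthest from 0 in each, at 5.19, 4.59 and -5.02, and the bars of *Gm18529* and *Slc25a2* are the widest.

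Levels per length, in RPKM (CPM per kilobase of exon), set the genes in order. *Taf7* was at 3.55 RPKM in the controls, *Slc25a2* at 1.23, *Gm36858* at 0.832, *3222401L13Rik* at 0.606, *Gm37446*, per unshared length, at 0.24, and *Gm18529* at 0.144 RPKM. No step between neighbours in this order exceeded the larger SD of the pair. The place of *Slc25a2* rests on control replicate 2, with 5.41 RPKM, where the median of the controls was 0.0914 RPKM. In *Mphosph8*∆n *3222401L13Rik* came first with 22.9 ± 4.92 RPKM (SD, n = 3), ahead of *Taf7* with 3.02 RPKM, and in *Morc2a*∆n it had 15.1 ± 5.34 RPKM (SD, n = 2) against 4.12 RPKM for *Taf7*. *Gm24401* is left out of this order, since reads that reach past the ends of so short a gene raise its level per length.

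The protocadherins on either side of *3222401L13Rik* are *Pcdhb22* and *Pcdhga1*. *Pcdhga1*, which starts right after it, had 1.5, 0, 0.187, 0 and 0.445 CPM in the controls, 0.103, 11.8 and 5.17 CPM in *Mphosph8*∆n, and 3.93 and 1.24 CPM in *Morc2a*∆n. The *Mphosph8*∆n library with the most *3222401L13Rik*, 178 CPM, thus had the least *Pcdhga1*, but the most *Pcdhb22* (34.2 CPM). *Pcdhga1* had log2 fold changes of 3.76 (SE 1.16) in *Mphosph8*∆n and of 2.63 (SE 1.25, edgeR adjusted p = 0.467) in *Morc2a*∆n. *Pcdhb22*, the last gene of the Pcdhb array, had log2 fold changes of 1.13 (SE 0.24) and 0.23 (SE 0.28, edgeR adjusted p = 0.836).

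**Figure D4:**
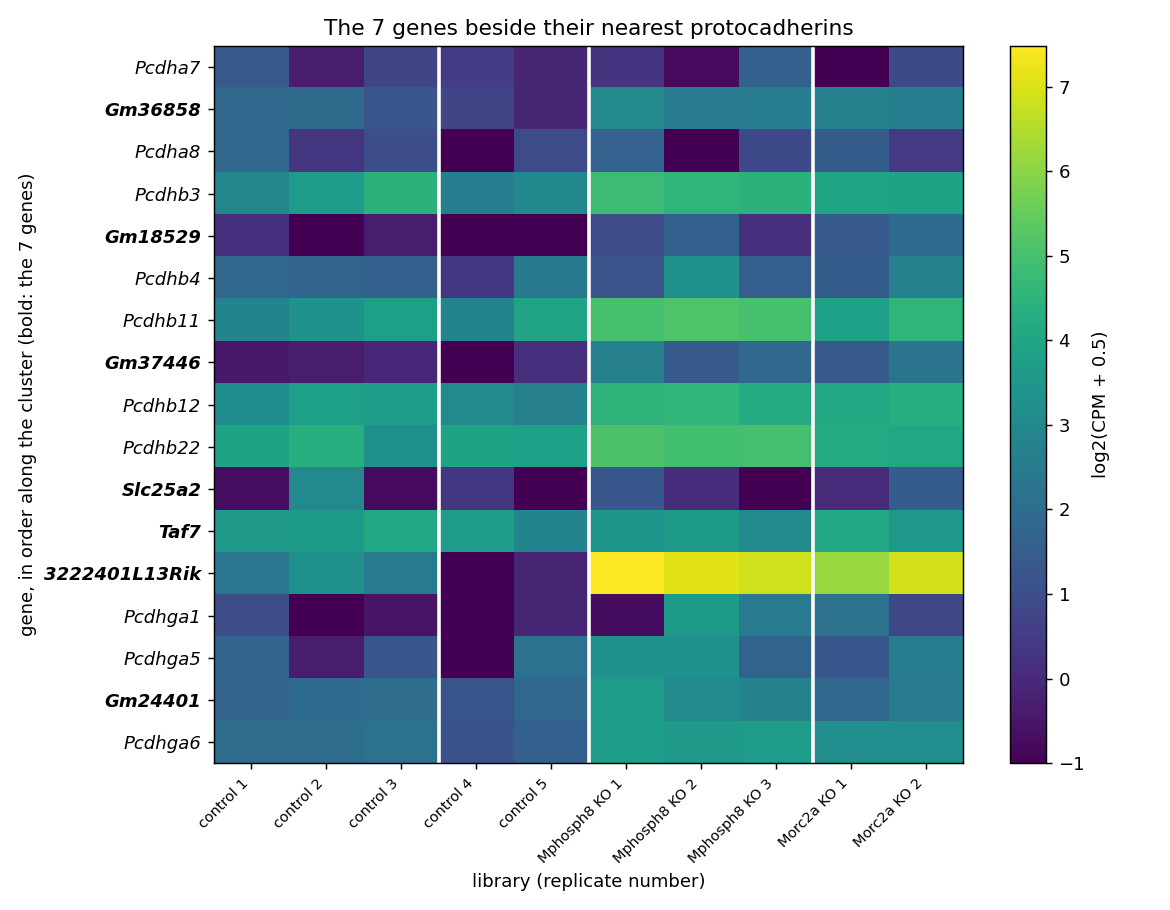
Level of the 7 genes (bold) and of the protocadherins next to them, as log2(CPM + 0.5) in colour, with genes in their order along the locus from top to bottom and 1 column for each library, white lines parting the groups and the control lines. The row of *3222401L13Rik* is bright in all 5 knockout libraries, at 2.32 to 3.26 in control replicates 1 to 3, and dark in replicates 4 and 5. *Taf7* above it keeps a similar colour throughout, at 2.84 to 4.07.

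The genes whose profile over the 10 libraries was most like that of *3222401L13Rik*, by the root mean square difference of centred log2(CPM + 0.5), were *Pcdhb6* at 1.66, *Pcdhb8* at 1.77 and *Afm*, on chromosome 5, at 1.88, where the root mean square of *3222401L13Rik* itself was 3.00. *Pcdhb6* had log2 fold changes of 3.04 (SE 0.33) in *Mphosph8*∆n and 2.29 (SE 0.36, edgeR adjusted p = 0.0174) in *Morc2a*∆n. For *Taf7*, the closest were *Gm37768* at 0.118, *4930503L19Rik* at 0.152 and *2310022B05Rik* at 0.168, against 0.363 for *Taf7* itself. These are descriptions over libraries that share groups and scaling.

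The rest of the locus was counted in the same way. Of the 20 further genes that are no protocadherins, 7 had 0 counts in all libraries and 10 had too few to be tested, with 56 counts in sum over the 5 controls, 37 over *Mphosph8*∆n and 12 over *Morc2a*∆n. The other 3 were *Gm26672*, *Gm10544* and *Gm19035*, with log2 fold changes of -1.33, -0.05 and 0.01 in *Mphosph8*∆n and of -1.09, -0.91 and -0.54 in *Morc2a*∆n (edgeR adjusted p from 0.613 to 0.953). Among the clustered protocadherins, 12 of 49 tested were called higher in *Mphosph8*∆n and 2, *Pcdhb6* and *Pcdhb15*, in *Morc2a*∆n, with median log2 fold changes of 1.34 and 0.83. *Pcdhga7*, with 0 counts in all 5 controls, had 113 counts in *Mphosph8*∆n and 7 in *Morc2a*∆n and was called in neither. It was at least 58.1-fold and 5.6-fold higher in pooled counts, taking 3 counts over the controls as the limit. The pooled counts of *3222401L13Rik* gave 35.5-fold in *Mphosph8*∆n against all controls. Of 24 protein-coding genes tested within 500000 bases on either side of the locus, none was called in either knockout with edgeR, limma-voom or DESeq2, 0 and 3 had an unadjusted edgeR p below 0.05, and their medians were -0.02 and -0.06.

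The partners of the 2 protein-coding genes elsewhere in the genome were counted by list. Of 15 other TFIID subunit genes tested, none was called in either knockout by the same 3 tools, and 1 in *Mphosph8*∆n and 0 in *Morc2a*∆n had an unadjusted edgeR p below 0.05. The median log2 fold change was 0.08 in *Mphosph8*∆n and 0.18 in *Morc2a*∆n. *Tbp*, which encodes the TATA-binding subunit, had log2 fold changes of -0.18 (SE 0.16) and 0.27 (SE 0.17, edgeR adjusted p = 0.626). Of 8 genes tested for carriers and enzymes of ornithine and related amino acids, none was called by these tools, 1 in each knockout had an unadjusted edgeR p below 0.05, and the medians were 0.14 and -0.04. *Slc25a15*, which encodes the other mitochondrial ornithine carrier, had log2 fold changes of 0.55 (SE 0.20) and 0.23 (SE 0.23, edgeR adjusted p = 0.792). Among all genes tested, 1053 in *Mphosph8*∆n and 1991 in *Morc2a*∆n had an unadjusted edgeR p below 0.05.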

How the data were processed

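The deposited files hold raw read counts per gene, 1 file for each of 10 libraries. Per the labels and the study's methods, the authors enriched poly(A) RNA, trimmed reads with Trim Galore 0.5.0, removed abundant sequences with Bowtie2 2.3.4.1, aligned the rest to GRCm38 with STAR and counted reads with featureCounts (Subread 1.6.2), without normalization. The strand setting was not given in the sources used here. Symbols, types and positions were taken from the GENCODE M21 annotation, which held 54495 of the 54532 gene identifiers.

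The counts were fitted with edgeR 4.0.16 under R 4.3.3, with filterByExpr on 3 groups (18573 genes kept), TMM scaling and quasi-likelihood tests over all 10 libraries. Adjusted p-values are those of Benjamini and Hochberg across the genes kept. Control lines were compared in a fit of 4 groups. Intervals of pooled counts are exact binomial ones and, like the limit of 3 counts, cover counting error only. Alternatives were DESeq2 1.42.0, limma-voom (limma 3.58.1), other size factors and filters, plain CPM, controls of the same line, the compared groups alone, a replicate block, and each library left out. The fits were tested on simulated counts with known fold changes.

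The 7 genes, the marker lists and the gene lists were chosen with earlier results of these data known. The genes named are these 7, their nearest protocadherins and overlapping genes, the tested others of the locus, the called genes or those of high level in the lists, and the 3 genes of most similar profile for *3222401L13Rik* and *Taf7*. Nuclei came from at least 2 brains per genotype, and no source used here states that each library is another mouse, so p-values measure the spread between these libraries. The study used littermates, but the labels do not name litters, so replicate numbers were not used as pairs. Residuals of libraries with the same replicate number correlated between -0.0275 and 0.0428 (7 pairs) and those of the others between -0.0552 and 0.0406. Some of the 7 pairs join different floxed lines, so these values cannot show whether any libraries came from littermates.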

Additional observations from a re-analysis of the deposited data

Results flagged for a closer look

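*Slc25a2* in control replicate 2 stood apart from the other control libraries, with 7.41 CPM where the other 4 had 0.79 CPM or less, and its gap to the nearest was 0.893 of the range of the controls (Dixon's critical value 0.71 for 5 libraries). Of the 7 genes so examined it was the 1 flagged, where chance flags about 1 in 20.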

How the results depend on the processing

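*3222401L13Rik* stayed called in *Morc2a*∆n in every alternative in which it could be tested, with log2 fold changes of 3.78 to 8.94 (4.16 to 5.20 with a library left out) and an adjusted p of at most 0.0356. In *Mphosph8*∆n, given as a description, its log2 fold change was 4.52 to 6.61 (6.61 with limma-voom, 4.86 to 5.81 with a library left out). With at least 10 counts required in every library it could not be tested, nor could it between the lines with the controls alone. Between the control lines it lost its call with limma-voom (-5.43, leaving 0 of the 7 genes called) and without control replicate 4 (-8.94 to -3.78 with a library left out, 0 to 1 of the 7 genes called). In *Mphosph8*∆n, 2 of the 7 genes, with *Gm37446* as the other, were past the thresholds with all genes of at least 1 count and with DESeq2, which says nothing of the genes, since that comparison entered their choice.

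The number of genes called in *Mphosph8*∆n, 18, was 87 with all genes of at least 1 count, 10 with controls of the same line, 43 with DESeq2 and 6 to 21 with a library left out. In *Morc2a*∆n, 11, it was 98 with all genes, 24 with at least 10 counts, 6 with the compared groups alone, 46 with the replicate block, 27 with DESeq2 and 3 to 26 with a library left out. Between the lines, 24, it was 154 with all genes, 48 with the controls alone, 96 with DESeq2, 14 with limma-voom and 11 to 46 with a library left out. The replicate block leaves control replicates 4 and 5 without a counterpart, so the Morc2a fl/fl controls do not enter its contrasts. *3222401L13Rik* then had 4.57 in *Mphosph8*∆n and 3.78 in *Morc2a*∆n, where it stayed called. The latter is a comparison across the lines, in blocks that are not known to be litters.

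Directions turned only for genes that were not called. In *Mphosph8*∆n, *Slc25a2* was 1.66 without control replicate 2 (-2.49 to 1.66 with a library left out). *Slc25a2* in *Morc2a*∆n was 1.72 with controls of the same line, 1.35 with limma-voom, 2.37 without control replicate 2 and 0.40 without *Morc2a*∆n replicate 1 (-1.66 to 2.37 with a library left out), and *Taf7* -0.11 without *Morc2a*∆n replicate 1 (-0.11 to 0.46). Between the lines with a library left out *Slc25a2* ranged from -7.60 to 1.82, *Gm37446* from -4.78 to 0.78 and *Taf7* from -0.96 to 0.01, above 0 without control replicates 2, 4 and 5, respectively. The cause was not tested. With 0 to 5 counts in the controls, the folds of *Gm37446* and *Gm18529* are limited by depth.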
